A study of Homo sapiens with 6 samples.

Results

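The clustered protocadherin genes on chromosome 5 were described with and without 5aza in HCT116, a line from a human colorectal carcinoma. Members were the genes of the deposited expression table whose Ensembl identifier maps to a PCDHA, PCDHB or PCDHG symbol on chromosome 5. The rule found 15 of the 16715 genes of the table: 1 of the alpha cluster (PCDHA6), 13 of the beta cluster and 1 of the gamma cluster (PCDHGA2). It used no expression value. GENCODE release 29 (GRCh38) places 15 coding genes in the alpha cluster, 16 in the beta cluster and 22 in the gamma cluster, between positions 140786136 and 141512981 of chromosome 5, and those with no row were not analysed here. RNA-seq was made from 3 control and 3 5aza libraries of the same line at passages 7 to 10. The 5aza cells had 5 µM of the drug for 48 hours and then fresh medium for 48 hours. No source used here tells what the control cells received, and nothing says whether libraries came from separate cultures, so p-values measure only the spread between these libraries, which may be technical. Values are FPKM, fragment counts corrected for transcript length and library depth.

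Clustered protocadherins are cell-surface proteins of the cadherin superfamily that bind the same isoform on a facing cell, and neurons use combinations of them to tell their own branches from those of other cells. Each alpha and gamma gene has its own first exon, which encodes the extracellular, transmembrane and first cytoplasmic parts and is spliced to constant exons shared by its cluster, whereas beta genes have no shared constant exons. Each first exon has its own promoter, and most carry a conserved element bound by the insulator protein CTCF. DNA methylation of these promoters is known to go with silence of the gene, and the clusters are known to be methylated over long stretches in several carcinomas. Azacytosine nucleosides bind DNA methyltransferases covalently, and dividing cells then fail to copy the marks; titles and protocol of the treated samples say 5aza, whereas their descriptions and table columns say DAC, which often stands for decitabine, and which compound was used cannot be told from the labels. Methylation itself was not measured in the data used here.

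The beta promoters share a short stretch of letters, and they are shown before the values because the same letters recur in genes that did and did not pass the test. RefSeq promoter sequences (GRCh38.p14, 250 bases before to 50 bases after the start) were matched by symbol for 13 of the 15 members, all on the plus strand; PCDHB6 and PCDHB11 had no match. The motif of 10 letters held by most beta promoters, searched on both strands, was GGTGGCGCTG, and 12 of 14 beta promoters had it, against 0.276% of all 35116 promoters in the table. It was in all 11 beta promoters of members. The motif was picked as the most frequent in the beta promoters, which are among the 35116, so these shares are no test. The 40-base windows around it follow, in lower case with the motif in capitals. The first 6 are of the genes that passed the test without a filter on low values, described below, and the other 5 of genes that did not.
PCDHB2, chr5:141094535-141094574: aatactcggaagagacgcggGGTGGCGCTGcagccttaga
PCDHB3, chr5:141100384-141100423: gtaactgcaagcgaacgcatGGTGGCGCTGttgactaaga
PCDHB5, chr5:141135170-141135209: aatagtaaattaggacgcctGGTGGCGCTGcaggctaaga
PCDHB9, chr5:141187065-141187104: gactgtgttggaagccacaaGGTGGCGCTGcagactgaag
PCDHB10, chr5:141192290-141192329: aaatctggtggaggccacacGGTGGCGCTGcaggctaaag
PCDHB13, chr5:141213856-141213895: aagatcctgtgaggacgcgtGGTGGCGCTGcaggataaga
PCDHB4, chr5:141121714-141121753: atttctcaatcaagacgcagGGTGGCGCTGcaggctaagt
PCDHB7, chr5:141172557-141172596: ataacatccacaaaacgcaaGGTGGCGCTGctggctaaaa
PCDHB8, chr5:141177768-141177807: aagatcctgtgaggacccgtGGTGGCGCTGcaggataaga
PCDHB12, chr5:141208634-141208673: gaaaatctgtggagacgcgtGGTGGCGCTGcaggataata
PCDHB15, chr5:141245305-141245344: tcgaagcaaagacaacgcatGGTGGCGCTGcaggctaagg

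The capitals hold 1 CpG, the dinucleotide that is methylated, and the letters just before them differ between genes. The window of PCDHB2 had 4 CpGs, those of PCDHB3, PCDHB12, PCDHB13 and PCDHB15 had 3 each, and that of PCDHB9 had 1. The motif began between 2 bases (PCDHB8) and 84 bases (PCDHB4) before the RefSeq start. In the alpha cluster the most shared motif was TGATGTCGCT, in 8 of 13 alpha promoters and 0.0342% of all promoters, and it was in the promoter of PCDHA6, shown in capitals.
PCDHA6, chr5:140827887-140827926: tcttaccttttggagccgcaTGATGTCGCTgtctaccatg

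In the gamma cluster it was GCGCCGCTGT, in 9 of 20 gamma promoters and 0.131% of all, and these letters were not in the window of PCDHGA2. A match is a description of letters, not of binding. The alpha and gamma motifs were likewise picked from the promoters of their own cluster, so their shares are no test. Promoters of members had 5 to 12 CpGs in 300 bases. All 13 were below the median of 14 over all promoters and above the lower quartile of 4, so within the middle range. The 250 bases before the start are shown for PCDHB2, which was listed at 0 in all controls and above 0 in all 5aza libraries, and for PCDHB15, the beta gene with the highest control values, with every CpG in capitals.
PCDHB2, chr5:141094365-141094614: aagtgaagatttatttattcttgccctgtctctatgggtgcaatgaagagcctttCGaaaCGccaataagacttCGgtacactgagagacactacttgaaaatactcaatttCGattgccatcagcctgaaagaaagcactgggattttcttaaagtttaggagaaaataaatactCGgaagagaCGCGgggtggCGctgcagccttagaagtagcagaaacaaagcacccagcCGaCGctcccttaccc
PCDHB15, chr5:141245145-141245394: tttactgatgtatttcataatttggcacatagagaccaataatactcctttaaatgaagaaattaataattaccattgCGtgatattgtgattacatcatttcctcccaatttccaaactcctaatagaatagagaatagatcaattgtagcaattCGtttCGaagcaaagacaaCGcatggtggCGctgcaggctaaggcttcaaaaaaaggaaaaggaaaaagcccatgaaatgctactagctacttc

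The stretch of PCDHB2 held 10 CpGs and that of PCDHB15 held 5. Across the 11 beta members with a promoter, the CpG count in 300 bases and the log2 difference between groups had a Spearman's rho of -0.25. This describes genes of related sequence in the same 6 libraries and is weak.

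A few facts of the whole table bear on the members. The summed FPKM per library lay between 577735 and 628399, and no read totals were at hand, so depth is unknown and no floor can be given for a gene listed at 0. Control replicates 1 to 3 had 1761, 1724 and 1663 genes at 0, and 5aza replicates had 801, 755 and 783. Of 12360 genes that passed a filter of 0.5 FPKM in at least 3 libraries, 23.7% were called at an adjusted p under 0.05 (limma, Benjamini-Hochberg over all genes tested). Of 12 colon epithelium markers 11 had values. In control KRT8 was at 984 and EPCAM at 166 FPKM, whereas VIL1 (0.0531), LGALS4 (0.0787), GPA33 (0.163) and KRT20 (0.774) were under 1 FPKM and CDX1 was at 0.

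Markers of cell types moved with the treatment too, mostly upwards. Of 7 tested colon markers 5 rose, among them KRT20 (0.774 to 3.07 FPKM) and KRT8 (984 to 1151 FPKM), and EPCAM fell to 153 FPKM. Leaving out 1 library lost the EPCAM call in 4 of 6 cases (highest limma adjusted p = 0.0781). The EPCAM call was also lost with no variance trend (0.0767) and under quantile normalization, described below (0.83). Over all genes tested 10.6% rose and 13.1% fell. The colon sums were 2347 to 2501 FPKM in control and 2849 to 2922 FPKM in 5aza libraries. Of 12 neuron markers 9 had values, with sums of 35.2 to 36.2 and 36.3 to 40.4 FPKM, most of it SYT1 (28.3 and 29.7 FPKM). STMN2, NEFL, NEFM and GAP43 were at 0 in all controls, and all of these but NEFM were above 0 in all 5aza libraries, like PCDHB2 and PCDHB5. Of the 918 genes of the table at 0 in all controls and above 0 in some 5aza library, 48.7% were above 0 in all 5aza libraries. STMN2 was at 0.0350, 0.232 and 0.129 FPKM in 5aza replicates 1 to 3, the neuron marker called with no filter (limma adjusted p = 0.0486). It entered that fit through the 5aza libraries alone and could only come out higher. SNAP25 went the other way, with means of 0.560 FPKM in control and 0.343 FPKM in 5aza, overlapping groups and no call. The means of SYT1, MAP2, DLG4 and RBFOX3 were higher in 5aza, also with no call. The 10 leukocyte markers summed to 3.399 to 4.62 and 7.33 to 9.27 FPKM, and the 8 of 10 fibroblast markers with values to 31.4 to 31.7 and 32.2 to 33.9 FPKM. With no filter 4 leukocyte and 4 fibroblast markers were called higher and 0 lower. Of these TYROBP, LUM and COL1A2 were at 0 in all controls and could only rise. Over all genes in that fit 10.7% were called higher and 8.79% lower. Among genes under 0.5 FPKM in all 6 libraries it was 12.6% and 0.108%. The part of the cell type markers in the results was not tested.

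The beta genes were almost silent in control cells and were listed at low levels in more genes and at higher values after 5aza, without reaching the level of the alpha and gamma rows. All 13 stayed under 0.5 FPKM in every library. Of the 2614 genes of the table under 0.1 FPKM in all controls, 2.72% reached 0.5 FPKM in all 5aza libraries, so most such genes did not. PCDHB13 and PCDHB15 were not among these genes, as they had control values above 0.1 FPKM. Above 0 were 7, 6 and 6 of the 13 in control replicates 1 to 3 and 12 in each 5aza replicate. The mean was higher in 5aza for 12 of 13 and lower for PCDHB15. The share of all genes with a higher mean was not computed, so this count is not shown to be particular to the beta genes. Under quantile normalization, described below, 8 had differences above 0 and 5 below. Summed over all 13, values were 0.676, 0.465 and 0.385 FPKM in control and 1.18, 1.34 and 1.14 FPKM in 5aza replicates 1 to 3. Without PCDHB15, left out after its values were seen, the sums were 0.197, 0.215 and 0.198 FPKM against 0.887, 1.1002 and 0.940 FPKM. Neither sum overlapped between the groups. Rare cells with more of these transcripts and a low level in all cells cannot be told apart in bulk RNA.

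**Figure D1:**
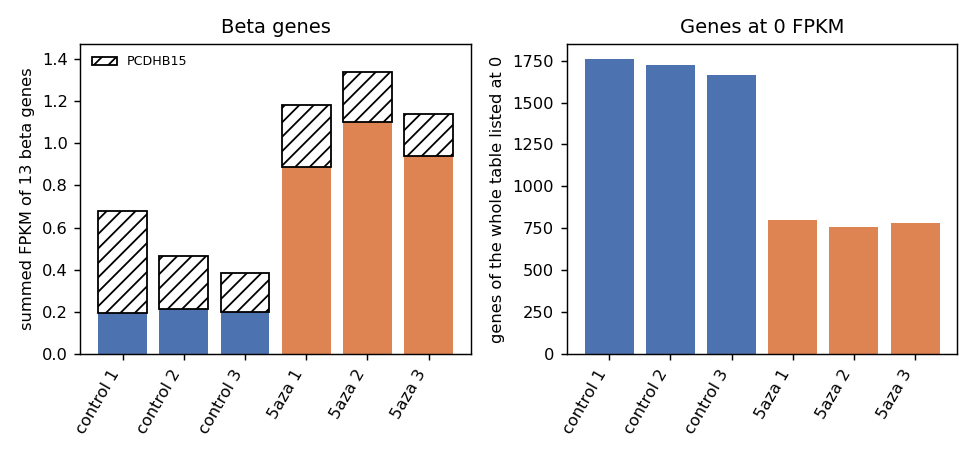
Left, the summed FPKM of the 13 beta genes in each library, with PCDHB15 hatched and the other 12 filled; right, the number of genes of the whole table listed at 0 FPKM in each library. All 13 summed to 0.385 to 0.676 FPKM in controls and 1.14 to 1.34 FPKM in 5aza libraries, and the 12 to 0.197 to 0.215 and 0.887 to 1.1002 FPKM, while genes at 0 numbered 1663 to 1761 and 755 to 801.

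Groups did not overlap, with every 5aza library above every control, for 7 of 13 beta genes (53.8%). Among the 3695 genes of the table that were above 0 somewhere and under 0.5 FPKM in all 6 libraries, this held for 26.0%, and over all genes above 0 in at least 1 library for 21.4%. No beta gene had all 5aza libraries below all controls, against 1.35% of the low genes. A gene with any control at 0 could not meet this, and only 3 of the 13 beta genes were above 0 in all controls. The 0 is therefore no result about the beta genes. The low genes of the table thus also stood more often above control than below it, and the difference between their share and that of the beta genes was not tested. Beta genes share sequence, as described below, so counts over the 13, here and later, need not be counts of separate observations.

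PCDHB2 (ENSG00000112852, chromosome 5, 141094578 to 141098703) is the first beta gene of the table along the chromosome. It was listed at 0 in all 3 control libraries and at 0.153, 0.135 and 0.194 FPKM in 5aza replicates 1 to 3. PCDHB5 (ENSG00000113209, chromosome 5, 141135218 to 141138625) was also at 0 in all controls and at 0.0841, 0.188 and 0.0844 FPKM after 5aza. Both were therefore above 0 in all treated libraries and in no control, and PCDHB5 was highest in 5aza replicate 2. PCDHB4 and PCDHB6 were the other beta genes at 0 in all controls. PCDHB4 was above 0 only in 5aza replicate 3, at 0.0291 FPKM, and PCDHB6 in 5aza replicates 1 and 2, at 0.0203 and 0.0366 FPKM. So 2 of the 4 beta genes at 0 in all controls were above 0 in all 5aza libraries, while 48.7% of the 918 such genes in the table were, a share like that of the beta genes.

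PCDHB9 and PCDHB10 are neighbours of similar sequence. PCDHB9 (ENSG00000177839, chromosome 5, 141187127 to 141191541) was at 0.0499, 0.0328 and 0 FPKM in control and at 0.154, 0.222 and 0.173 FPKM in 5aza replicates 1 to 3. PCDHB10 (ENSG00000120324, chromosome 5, 141192353 to 141195642) was at 0, 0.0325 and 0.0112 FPKM in control and 0.0858, 0.115 and 0.0767 FPKM after 5aza. Neither gene's groups overlapped. Of the 50-base windows of their annotated transcripts, 1290 of 4454 for PCDHB9 and 1147 of 3241 (35.4%) for PCDHB10 also occurred in another gene's transcript, most often in each other's. Over the 13 beta genes that share ran from 9.61% (PCDHB7) to 49.3% (PCDHB8, mostly shared with PCDHB13), and with 100-base windows from 2.62% to 29.9%. No source used here tells how reads that match several genes were counted, so values of single beta genes are uncertain.

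PCDHB13 and PCDHB15 were the beta genes with the highest control values. PCDHB13 (ENSG00000187372, chromosome 5, 141213919 to 141218979) was at 0.0679, 0.0863 and 0.118 FPKM in control and 0.182, 0.188 and 0.194 FPKM in 5aza, a ratio of means of 2.07. PCDHB15 (ENSG00000113248, chromosome 5, 141245349 to 141249365), the last beta gene, was at 0.480, 0.250 and 0.187 FPKM in control and 0.294, 0.237 and 0.197 FPKM in 5aza. The groups of PCDHB13 stood apart, while those of PCDHB15 overlapped and its highest value was in control replicate 1. PCDHB3 was at 0.0105, 0 and 0.0107 FPKM in control and at 0.0521, 0.0497 and 0.0523 FPKM in 5aza. PCDHB12 was at 0.0180, 0 and 0 against 0.0341, 0.0336 and 0.0247 FPKM. The groups of these 2 genes did not overlap either. PCDHB7, PCDHB8 and PCDHB11 had overlapping groups, with 5aza means of 0.0517, 0.0198 and 0.0505 FPKM and control means of 0.0186, 0.00418 and 0.0345 FPKM.

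**Figure D2:**
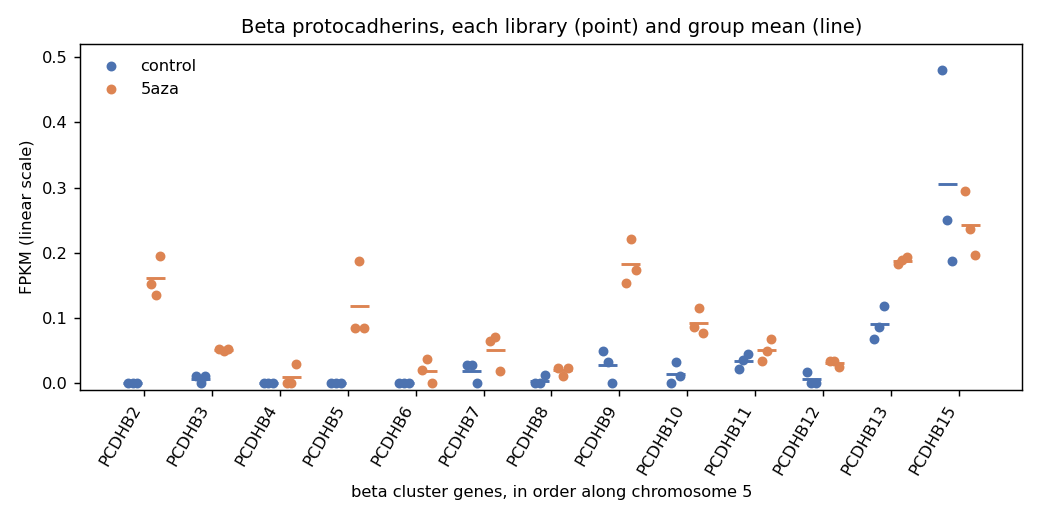
FPKM on a linear scale of the 13 beta genes, in order along chromosome 5, with a point for each of 3 control and 3 5aza libraries and a line at each group mean. PCDHB2 and PCDHB5 are at 0 in all controls, and PCDHB15 has the highest single value, 0.480 FPKM in a control library.

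No beta gene passed the filter of 0.5 FPKM, so none was tested in the fit with that filter. The fit with no filter, over the 16627 genes above 0 in at least 1 library, tested all 13 on log2(FPKM + 0.1), a scale that understates changes near 0. In it 6 beta genes passed with higher values in 5aza (46.2%), 0 passed with lower values and 7 did not pass. In the same fit 6 also had an unadjusted p under 0.05. PCDHB2, PCDHB4, PCDHB5 and PCDHB6, at 0 in all controls, entered it through the 5aza libraries alone and could only come out higher. The calls of PCDHB2 and PCDHB5 are therefore no independent support. Of the 6 genes called, 1 (PCDHB13) was above 0 in all controls. Over all genes in that fit 10.7% were called higher and 8.79% lower, and among the low genes 12.6% and 0.108%. The difference on that scale was 1.38 for PCDHB2 (SE 0.15, limma adjusted p = 0.00152), 1.16 for PCDHB9 (SE 0.20, adjusted p = 0.00945) and 1.096 for PCDHB5 (SE 0.20, adjusted p = 0.0127). It was 0.75 for PCDHB10 (adjusted p = 0.0225), 0.60 for PCDHB13 (adjusted p = 0.0398) and 0.50 for PCDHB3 (adjusted p = 0.0346). For all 6 the size depends on the pseudocount and is no fold change: with 0.01 and 1 in place of 0.1, the difference was 2.69 and 0.20 for PCDHB9 and 1.92 and 0.06 for PCDHB3. A pseudocount of 0.01 ended the call of PCDHB13 (adjusted p = 0.0806) and one of 1 that of PCDHB3 (adjusted p = 0.0818). The median over the 13, of which 4 were at 0 in all controls, was 0.35, against 0.21 over the low genes and 0.03 over all genes in that fit. For genes that did not pass, the 95% interval was wide, such as -0.02 to 0.63 for PCDHB12 and -0.86 to 0.49 for PCDHB15.

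PCDHB2, PCDHB5 and PCDHB9 passed whichever of the 6 libraries was left out. PCDHB2 and PCDHB5, at 0 in all controls, could only come out higher in these fits, so for them this is no independent support. PCDHB3 was lost without each library (adjusted p between 0.0548 and 0.125), PCDHB10 without control replicate 1 or 3 or 5aza replicate 1 or 2 (highest adjusted p = 0.0797), and PCDHB13 without any library but control replicate 3 (highest adjusted p = 0.126). Quantile normalization, which gives all libraries the same distribution, left calls for PCDHB2 (1.03 on that scale) and PCDHB5 (0.77) only. Both genes had entered the fit through the 5aza libraries alone, so these calls are no independent support either. With quantile normalization 8 beta genes had differences above 0 and 5 below. The sign turned for PCDHB7, PCDHB8, PCDHB11 and PCDHB12, none of which had passed. The median of the low genes moved from 0.21 to -0.11 with quantile normalization, and that of the 13 beta genes from 0.35 to 0.02.

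**Figure D3:**
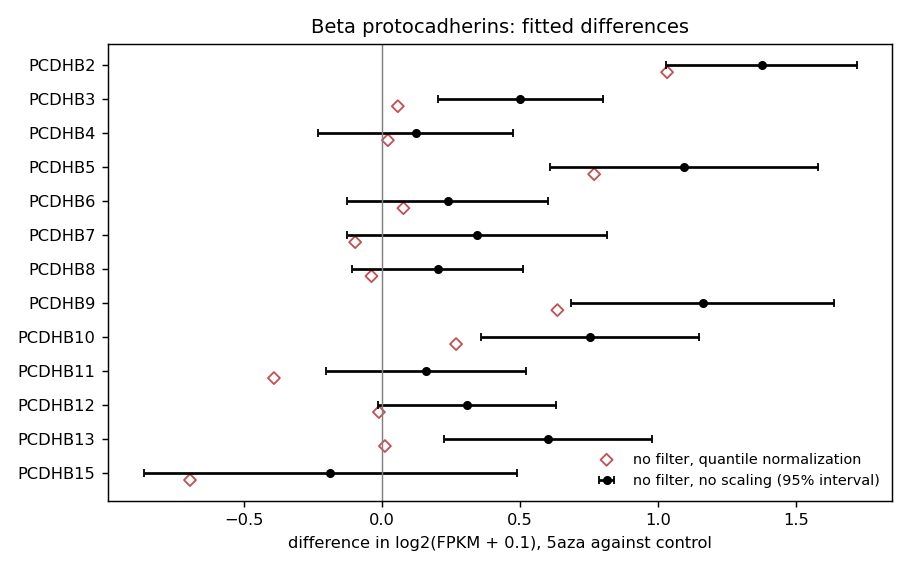
Fitted difference, 5aza against control, of log2(FPKM + 0.1) for the 13 beta genes in the fit with no filter, with 95% intervals (black), and the same value under quantile normalization (open diamonds). Quantile values lie lower for each gene, and those of PCDHB7, PCDHB8, PCDHB11, PCDHB12 and PCDHB15 are below 0.

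The alpha and gamma rows were at several FPKM in both groups, and neither passed the test. PCDHA6 (ENSG00000081842, chromosome 5, 140827958 to 141012344) was at 3.59, 3.57 and 3.42 FPKM in control and 3.47, 3.94 and 3.73 FPKM in 5aza replicates 1 to 3. The groups overlapped, with a log2 fold change of 0.07 (SE 0.08, 95% interval -0.12 to 0.26, limma adjusted p = 0.582), which turned to -0.03 under quantile normalization. PCDHGA2 (ENSG00000081853, chromosome 5, 141338760 to 141512979) was at 5.12, 6.30 and 4.61 FPKM in control and 7.62, 6.12 and 6.70 FPKM in 5aza. Its groups overlapped through control replicate 2, and the log2 fold change was 0.35 (SE 0.13, 95% interval 0.05 to 0.65, limma adjusted p = 0.0868). Without control replicate 2 it was 0.47 and passed (adjusted p = 0.0347). Of the 2 tested members, 0 were called, where 23.7% of all genes tested were; 1, PCDHGA2, had an unadjusted p under 0.05 (0.0262).

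**Figure D4:**
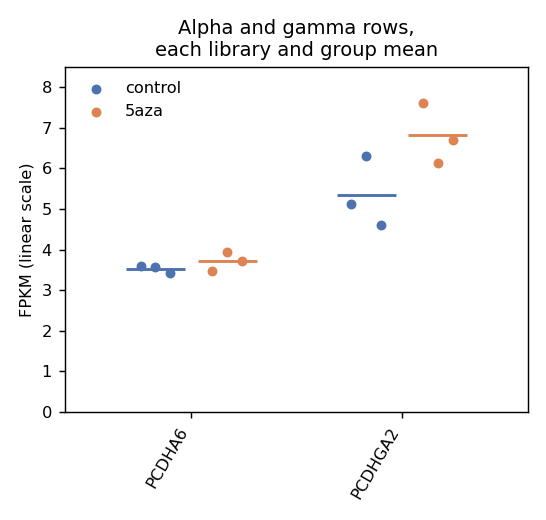
FPKM on a linear scale of PCDHA6 and PCDHGA2, the rows of the alpha and gamma clusters, with a point for each of 3 control and 3 5aza libraries and a line at each group mean. PCDHA6 lies between 3.42 and 3.94 FPKM in all libraries, and the groups of PCDHGA2 overlap at 6.12 to 6.30 FPKM.

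No source used here tells which reads these 2 rows count. Of the annotated exon bases of PCDHA6, 46.7% (2866 of 6133) are also exon bases of other alpha genes, and all 14 other coding alpha genes share some of them. For PCDHGA2 the share is 32.4% (2181 of 6724), shared with all 21 other coding gamma genes. In both clusters the gene with a row is the one with the lowest Ensembl identifier. The same holds for the UGT1A locus, another group of first exons spliced to shared exons, where UGT1A6 is the 1 of 9 coding genes with a row. Reads of PCDHA6 and of other alpha genes, and of PCDHGA2 and other gamma genes, therefore cannot be told apart over the shared exons, and a level is given for the row and not for the isoform. Whether the rows hold reads of the other genes was not tested. For the same reason the higher level of these rows than of single-gene beta rows, though FPKM is per length, is not a comparison of isoforms. The isoforms PCDHAC1, PCDHAC2, PCDHGC3, PCDHGC4 and PCDHGC5, which differ from the others in sequence and regulation, were not analysed here.

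Genes around the clusters showed changes in both directions and of small size. Of 22 genes between the clusters or among the 10 nearest with values on each side, 19 passed the filter, with 2 that rose, 4 that fell and 13 that did not pass the test. Their median log2 fold change was -0.02, against -0.01 over all genes; 10.6% of all genes tested rose and 13.1% fell. TAF7, a subunit of the general transcription factor TFIID, lies on the other strand between the beta and gamma clusters (chromosome 5, 141260225 to 141320821). It rose from 31.9, 32.7 and 31.1 FPKM to 39.8, 37.9 and 38.2 FPKM (log2 fold change 0.28, SE 0.04, limma adjusted p = 0.00244) and passed whichever library was left out. SLC25A2, an ornithine carrier gene within the annotated bounds of TAF7 (141302629 to 141304045), was listed at 0 in all libraries but 5aza replicate 3, at 0.0270 FPKM. Before the alpha cluster NDUFA2, of respiratory complex I, fell from 76.9 to 61.6 FPKM, TMCO6 from 11.0 to 9.35 FPKM and HARS2, the mitochondrial histidyl-tRNA synthetase, from 74.0 to 65.8 FPKM. After the gamma cluster HDAC3, a histone deacetylase, fell from 56.4 to 51.5 FPKM and RNF14, a ubiquitin ligase, rose from 23.6 to 26.4 FPKM. The HDAC3 call was lost without any library but 5aza replicate 1 (highest adjusted p = 0.129), and also with the replicate block (0.0629), quantile normalization (0.161) and no variance trend (0.0951). The RNF14 call was lost without any library but control replicate 1 (highest 0.0821) and with no variance trend (0.051), and the TMCO6 call without control replicate 1 or 2 or 5aza replicate 3 (highest 0.0625). The HARS2 call was lost under quantile normalization (adjusted p = 0.0905).

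**Figure D5:**
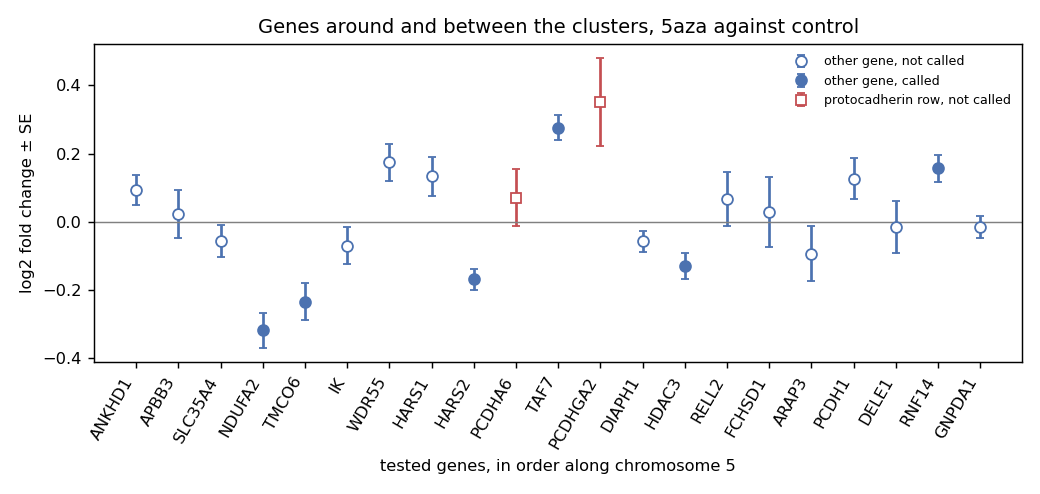
Log2 fold change with its SE of the 19 tested genes around and between the clusters (circles) and of PCDHA6 and PCDHGA2 (squares), in order along chromosome 5; filled symbols passed the test. TAF7 and PCDHGA2 are at 0.28 and 0.35, and the called falls lie between -0.13 and -0.32.

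Among genes that act on clustered protocadherin promoters or on chromatin, more fell than rose. Of 30 tested regulators, which include CTCF, cohesin, DNA methyltransferases and silencing enzymes, 12 fell, 1 rose and 17 did not pass, where 13.1% of all genes tested fell and 10.6% rose. The median log2 fold change was -0.08, against -0.01 over all genes. CTCF, the insulator protein that binds the conserved element, was at 28.2, 28.6 and 28.5 FPKM in control and 22.5, 24.1 and 21.8 FPKM in 5aza (log2 fold change -0.32, SE 0.05, limma adjusted p = 0.00296). Its groups stood apart, and it passed whichever library was left out. Of cohesin, which folds the clusters into loops with CTCF, RAD21 fell from 162.0 to 141 FPKM and SMC3 from 30.1 to 26.0 FPKM, both chosen after their values were seen. NIPBL, the cohesin loader, was higher (8.13 to 9.51 FPKM) but the call ended when any of the 6 libraries was left out (adjusted p from 0.0505 to 0.125), under quantile normalization, with no filter, with no variance trend and with the replicate block. DNMT1, the maintenance methyltransferase, fell (64.0 to 47.6 FPKM), but did not pass without control replicate 2 or any 1 of the 5aza libraries (highest adjusted p = 0.0706), nor with no variance trend. SMCHD1 (15.7 and 15.8 FPKM) and SETDB1 (11.8 and 12.04 FPKM), which are known to silence the clusters and were also chosen after their values were seen, did not pass. With no variance trend 7 regulators fell, under quantile normalization 9, and 8 to 10 when 1 library was left out. Leaving out 1 library lost the PDS5B and CBX3 calls in 5 of 6 cases and the CBX1 call in 4 of 6. CBX3, 1 of the 12 falls, turned sign under quantile normalization.

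Protocadherins outside the clusters include adhesion genes with a gene and promoter of their own. Of 10 non-clustered protocadherins 7 had values and 2 were tested. PCDH7 fell from 39.1 to 33.8 FPKM (log2 fold change -0.21, SE 0.04, limma adjusted p = 0.0136) and PCDH1, at 10.1 and 11.1 FPKM, did not pass (adjusted p = 0.166). In the fit with no filter PCDH9, PCDH10 and PCDH18 passed with higher values, all chosen after their values were seen. These are 3 of 7, where 10.7% of all genes and 12.6% of the low genes were called higher in that fit. PCDH10 was at 0, 0.00399 and 0.00847 FPKM in control and 0.108, 0.0976 and 0.157 FPKM in 5aza. PCDH9 and PCDH18 were at 0 in all controls and above 0 in all 5aza libraries. They entered that fit through the 5aza libraries alone and could only come out higher. PCDH12 was at 0.103, 0.165 and 0.227 against 0.121, 0.333 and 0.529 FPKM and did not pass. Whether the beta genes differ from these genes was not tested.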

How the data were processed

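Values are FPKM per gene as deposited by the authors, in 1 table of 6 libraries whose columns were matched to samples through the sample descriptions. Per the submitters' processing notes, tools were DESeq2 1.10.1, HTSeq 0.6.0 and STAR 2.5.1b (roles not stated) and builds Rnor_6.0 and GRCh38; which program computed FPKM is unknown. From 16726 rows with 16715 identifiers, duplicates of 11 identifiers were dropped in favour of the row of higher mean. Symbols were matched for 15421 of 15451 Ensembl identifiers.

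Genes reaching 0.5 FPKM in 3 or more libraries were tested as log2(FPKM + 0.1) with limma 3.58.1 in R 4.3.3 (eBayes with a variance trend, two-sided, Benjamini-Hochberg adjustment over all genes tested, called at an adjusted p under 0.05), after a check on simulated data. Alternatives were pseudocounts of 0.01 and 1, no filter, a mean filter, a filter at 0.1 FPKM, quantile normalization, no variance trend, a replicate block and leaving out each library. Their combinations with no filter were chosen after seeing the data. Named genes were the 4 most abundant members per cluster, C-type isoforms, the 3 largest called changes per cluster, up to 2 called genes per direction of other lists, and called neighbours. Members and lists were chosen with earlier results of these data known. Motifs were searched as exact letters; 50-base and 100-base transcript windows were compared as exact matches with all GENCODE transcripts.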

Additional observations from a re-analysis of the deposited data

How the results depend on the processing

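Calls over all genes numbered 2929 and were between 1635 and 2607 when 1 library was left out. Of the clustered protocadherins 0 were called with the filter at 0.5 FPKM, 6 with no filter and 2 with a filter at 0.1 FPKM, where 4 beta genes were tested and PCDHB2 and PCDHB9 passed (both reached that filter through the 5aza libraries alone, so their calls there are no independent support); leaving out 1 library gave 0 to 1. The 6 beta genes called with no filter became 2 under quantile normalization and 2 with the filter at 0.1 FPKM, and 3 to 4 when 1 library was left out. The sign turned under quantile normalization for PCDHA6 (-0.025), PCDHB7 (-0.10), PCDHB8 (-0.038), PCDHB11 (-0.39) and PCDHB12 (-0.011), and for PCDHB15 without control replicate 1 (0.10; from -0.40 to 0.10 over the libraries left out); none of these had passed, and the cause was not tested. Replicate numbers shared by the groups were tried as a replicate block: calls over all genes were 2932, 0 protocadherins were called with the filter at 0.5 FPKM, and with no filter the block left 4 beta genes, losing PCDHB3 (adjusted p = 0.0838) and PCDHB13 (adjusted p = 0.0765). Same-numbered libraries deviated together only weakly (r of 0.0482, 0.0772 and 0.0677 across genes), though each correlated best with its own number, and no source says that the numbers pair cultures. Depth is unknown, and beta values listed above 0 began at 0.0105 FPKM, so single low values are imprecise.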

Other observations

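Cadherins outside the protocadherins also included genes with higher values after 5aza. Of 32 classical and related cadherins with values, 11 were tested, 3 rose (27.3%), 0 fell and 8 did not pass, where 10.6% of all genes tested rose and 13.1% fell. With no filter 3 of 32 were called higher and 0 lower, against 10.7% and 8.79% of all genes. CDH2, N-cadherin, was at 0, 0.0307 and 0 FPKM in control and 0.130, 0.181 and 0.146 FPKM in 5aza (limma adjusted p = 0.00491 with no filter). CDH13 was at 0 in all controls and at 0.103, 0.0110 and 0.192 FPKM in 5aza, and did not pass (limma adjusted p = 0.107). CDH2 and CDH13 were picked with their values known. CDH1, E-cadherin of epithelial junctions, rose from 12.7 ± 0.132 to 16.2 ± 0.703 FPKM (SD, n = 3; log2 fold change 0.35, limma adjusted p = 0.00265). CELSR1, a planar polarity cadherin, was higher (6.66 to 7.99 FPKM) but the call ended when any of the 6 libraries was left out (adjusted p from 0.0533 to 0.0953), with no filter (0.0509), with quantile normalization (0.0583) and with the replicate block (0.053). Of 24 tested partners, kinases and proteases of clustered protocadherins, 3 rose, 3 fell and 18 did not pass, near the 10.6% and 13.1% of all genes tested. CYFIP2, of the actin-regulating WAVE complex that binds protocadherin tails, rose from 18.5 ± 0.277 to 23.9 ± 0.297 FPKM (SD, n = 3; limma adjusted p = 6.78e-04) and passed whichever library was left out. ADAM10, a protease that sheds cadherins, rose from 43.3 to 49.1 FPKM, AXIN1 fell from 14.2 to 11.96 FPKM and ABI2, also of the WAVE complex, fell from 27.1 to 24.3 FPKM. Leaving out 1 library lost the ADAM10 call in 4 of 6 cases and the AXIN1 and ABI2 calls in 5 of 6. ABI2 was also lost with the replicate block (adjusted p = 0.0706), quantile normalization (0.0767) and no variance trend (0.0819), and ADAM10 with no variance trend (0.0798).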
